A study of Mus musculus with 18 samples.

Results

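The question addressed here was which genes gained or lost an injury effect between day 1 and day 7 after rupture of the anterior cruciate ligament (ACL) in the mouse knee. The injury effect of a day was the log2-fold change of the injured right knee over the uninjured contralateral left knee, and the measurement described is the injury effect at day 7 minus that at day 1. It used 12 of the 18 libraries of the series, 3 each from contralateral and injured knees at day 1 and at day 7. The other 6 libraries, from naïve mice, entered the fit for its estimate of the spread and are given as a background level. Left and right naïve knees were pooled apart, so naïve libraries can share animals, while the fit treated all 18 as independent. On the 12 libraries alone 521 genes in place of 750, and 21 in place of 52, had a higher or lower difference.

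All mice were male C57Bl/6J animals of 12 weeks. The right knee received a single load that ruptured the ligament, and the left knee of the same mice was not loaded, so the contralateral limb came from an animal with an injured joint. Femoral condyle cartilage caps were pooled from several mice for each library, with more mice per pool at day 7 than at day 1, and stranded total RNA was sequenced. The labels do not tie an injured library to the contralateral library of the same mice, and p-values measure the spread between these pools. Total estimated counts ran from 19192253 to 41794005 over the 12 libraries. Values below are CPM, counts scaled to library size after normalisation between libraries, each group having n = 3, and errors of log2-fold changes are standard errors (SE).

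The ACL holds the tibia in place under the femur, and its loss exposes cartilage to abnormal load. Articular cartilage is built from type II collagen fibrils filled with the proteoglycan aggrecan. Healing connective tissue is instead rich in type I and III collagen, small leucine-rich proteoglycans and matricellular proteins such as periostin, which bind collagen and cell surface receptors and are made during repair and under mechanical stress.

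Several libraries stood apart from their replicates. In contralateral day 7 replicate 1, 42.5% of counts fell in the 10 most abundant genes, against 18.4% and 22.5% in the other contralateral libraries of that day. Chondrocyte markers summed to 14722 CPM in it, against 4996 and 5908 CPM. Osteoblast and osteocyte markers summed to 53707 CPM against 17501 and 23726 CPM. Most of each of these osteoblast sums was the collagen gene Col1a1, at 52441 CPM against 15476 and 21550 CPM. The rest of that list summed lower in this library than in its replicates. At day 1, contralateral replicate 3 and injured replicate 2 had the highest sums of synovial fibroblast markers, 2444 and 2565 CPM. The other 4 libraries of that day had 1318 to 1804 CPM. Prg4, a gene of cartilage surface and synovium, held this excess, at 1649 and 1775 CPM against 565 to 892 CPM. The rest of the list did not set these 2 libraries apart. They also had the lowest sums of adipocyte markers, 557 and 455 CPM, against 989 to 1511 CPM. Beside a list, the count without contralateral day 1 replicate 3 and injured day 1 replicate 2 ("the 2 day 1 libraries") is given where it differed by over 1.5 times or a named call was lost, and for some other lists. In bulk tissue, fewer cells of a type and less RNA per cell cannot be told apart.

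Of 21262 genes tested, 802 had injury effects that differed between the days at a false discovery rate (FDR) of at most 0.05 and at least 1.5-fold in edgeR's quasi-likelihood test. The difference was higher at day 7 for 750 genes (3.53%) and lower for 52 (0.245%). All 750 gained an effect, in that the effect was larger in size at day 7 than at day 1, with a median log2-fold change of 0.23 at day 1 and 1.54 at day 7. Of the 52 lower genes 47 gained a negative effect in the same sense, which need not be called at day 7. For the other 5 (Slc1a1, Sp7, Tnfrsf19, Gm16299 and Gm28756) the effect at day 1 was the larger in size. Among all 52, 42 were called lower at day 7 and 10 were not. The difference of 38 of the 52 was called in 6 or fewer of the 12 fits that left out 1 library. A difference of at least 4-fold was found for 154 of the higher genes and of at least 8-fold for 42. Genes given below with a value as higher or lower kept that call in each of the 12 fits that left out 1 library, except where the text says otherwise. Of 16 genes given below as not called, 6 (Tnc, Mmp9, Dcn, Fbn1, Cdkn1c and Atf3) were called in at least 1 alternative setting, all 6 by DESeq2.

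At day 1 itself no gene passed in edgeR's test (0%), with 978 genes (4.6%) at an unadjusted p of at most 0.05 and a lowest FDR of 0.993. DESeq2's Wald test and limma-voom also called 0 genes at day 1, and edgeR fitted on the 12 libraries alone called 2, both lower. At day 7, 1984 genes were higher in injured knees (9.33%) and 686 were lower (3.23%). Of the genes higher at day 7, 743 (37.4%) had a called difference between the days. The other 1241 had a median effect of 1.00 at day 7 and 0.24 at day 1, and 1126 of them had the same sign at both days. Being called at day 7 and not at day 1 was thus not the same as passing the test of the difference. Of the genes lower at day 7, 42 (6.12%) had a called difference.

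**Figure D1:**
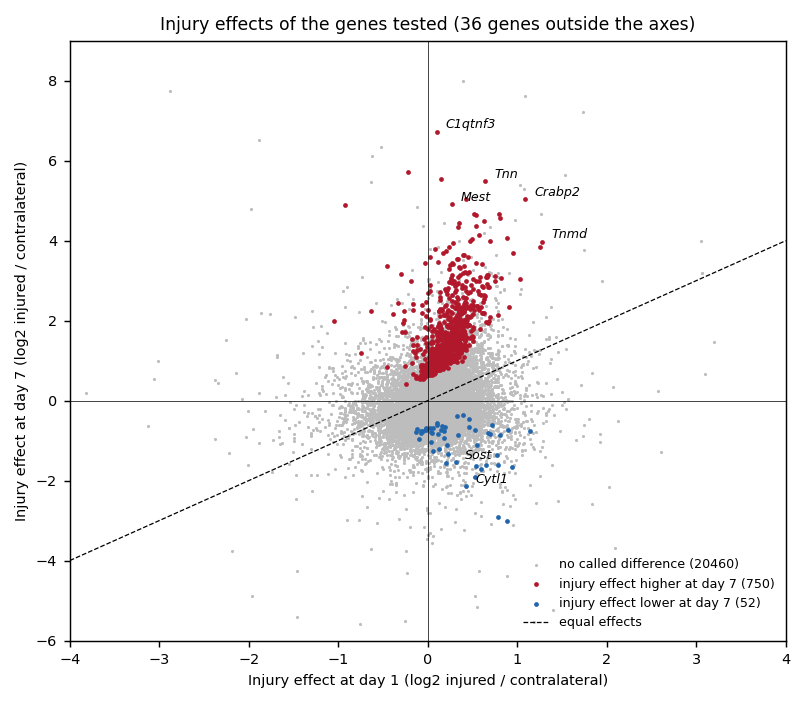
Injury effect at day 1 (horizontal axis) against day 7 (vertical axis), both as log2-fold change of injured over contralateral knees, with 1 point for each gene tested, apart from 36 that lie outside the axes, and called genes coloured. Points of the 750 higher genes lie above the diagonal of equal effects and spread upwards, while effects at day 1 stay near 0.

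For 745 of the 750 higher genes the change in injured knees between the days was larger than that in contralateral knees, and 727 passed the test of injured knees between the days, in which 1704 genes rose (8.01%) and 1173 fell (5.52%). None of the 750 was called between the contralateral knees of the 2 days, where 3 genes in all rose (Ckb, Bambi and C77080, 0.0141%) and 1 fell (Gm14567, 0.0047%), names chosen after their values were seen. The median change of the 750 genes was 1.27 in injured and -0.01 in contralateral knees. In 747 of them (99.6%) each of the 3 injured day 7 libraries lay above all the other 9, a pattern found for 13% of all genes tested. The 750 genes were called on these same libraries, so this count describes the choice of genes and nothing is read from it. The lower genes were more mixed, with the larger change in the injured knees for 41 of 52 and in the contralateral knees for 11. The 3 injured day 7 libraries lay below the other 9 for 36 of these 52 (69.2%) and for 4.82% of all genes tested, a description with the same limit.

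**Figure D2:**
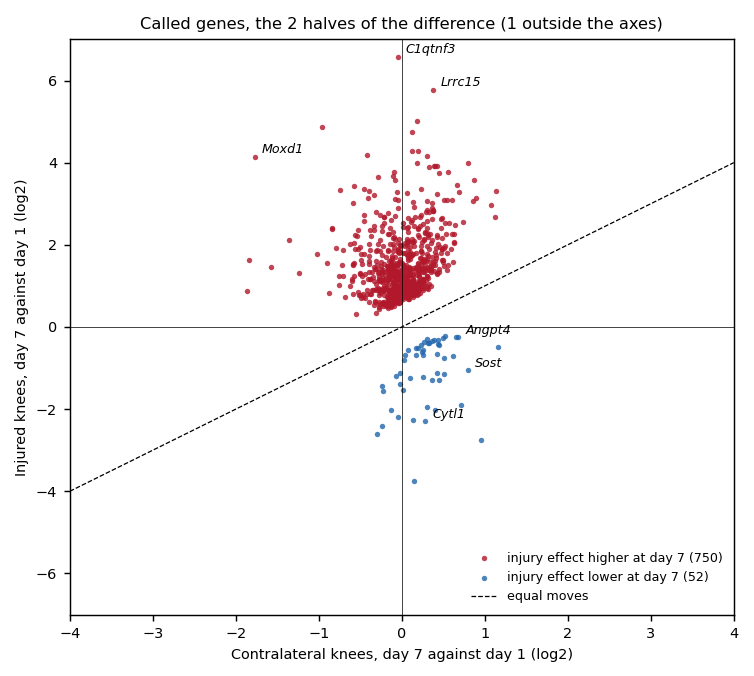
Change between day 1 and day 7 in contralateral knees (horizontal axis) and injured knees (vertical axis), both as log2-fold change, for the 802 called genes. Higher genes spread along the injured axis with contralateral changes near 0, and lower genes take both axes.

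Among genes of at least 5 CPM the largest difference belonged to C1qtnf3 (ENSMUSG00000058914, GRCm38 chr15:10952332-10980150, plus strand). It encodes a secreted protein with a collagen-like stalk and a C1q domain, also known as cartducin and made by cartilage precursors. Its values were 8.23, 7.58 and 5.37 CPM in contralateral knees and 7.59, 5.09 and 9.95 CPM in injured knees at day 1. At day 7 they were 4.68, 7.44 and 8.08 CPM in contralateral knees and 596, 674 and 892 CPM in injured knees. The injured day 7 libraries (721 ± 153 CPM, SD) stood far above the other 9 libraries, which overlapped each other, and above the naïve libraries, of which the highest was 12.3 CPM. The log2 difference between injury effects was 6.62 ± 0.46 (FDR 6.6e-07), with an effect of 0.10 at day 1 and 6.72 at day 7.

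The window from 250 bases before to 50 after the annotated start of C1qtnf3 is shown because this gene changed most among those of at least 5 CPM (RefSeq, GRCm38.p6, chr15:10952082-10952381, plus strand). Capitals mark GGAATG, a motif bound by TEAD factors, and TATAAA, the letters of a core promoter element found near many start sites.
C1qtnf3: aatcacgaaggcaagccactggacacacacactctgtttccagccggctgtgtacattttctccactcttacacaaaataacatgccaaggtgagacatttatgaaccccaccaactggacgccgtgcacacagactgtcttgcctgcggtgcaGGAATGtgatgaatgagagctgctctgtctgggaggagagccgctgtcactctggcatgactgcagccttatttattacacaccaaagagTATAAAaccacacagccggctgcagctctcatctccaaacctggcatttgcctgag
The search covered both strands, and the motifs do not overlap here. GGAATG was in 14.7% of all promoter windows of this length, in 13% of those of tested genes and in 14.4% of those of the higher genes. TATAAA was in 13.6%, 9.2% and 9.21%, and the AP-1 motif TGACTCA, absent from this window, in 5.2%, 4.31% and 4.53%.

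Tnn, which encodes a tenascin found in bone and periosteum, had values of 15.4, 14.9 and 20.7 CPM in contralateral and 17.7, 30.1 and 31.8 CPM in injured knees at day 1, and 17.8, 13.7 and 26.1 CPM in contralateral and 675, 817 and 1086 CPM in injured knees at day 7. Its difference was 4.84 ± 0.44 (FDR 8.4e-06). Only the injured day 7 libraries lay outside the range of naïve knees, 19.1 to 42.5 CPM, on the upper side. Postn, the periostin gene, was at 66.8, 71.5 and 209 CPM in contralateral and 114, 207 and 148 CPM in injured knees at day 1, and at 46.5, 94.9 and 117 CPM against 2087, 2906 and 3470 CPM at day 7. The 2 day 1 libraries of high Prg4 had the highest day 1 values of Postn, and the groups overlapped at day 1 but not at day 7. The difference for Postn was 4.60 ± 0.74 (FDR 0.00138), and 3.85 without contralateral day 1 replicate 3.

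The thrombospondin gene Thbs2, a regulator of collagen fibril assembly, was at 49.3, 53.1 and 60.2 CPM in contralateral and 89.4, 61.4 and 90.4 CPM in injured knees at day 1, and at 72.3, 55.6 and 76.4 CPM against 990, 1171 and 1434 CPM at day 7. At day 1 all 3 injured libraries were above the contralateral ones, by far less than at day 7, and the difference was 3.57 ± 0.31 (FDR 6.3e-06). Matn2, which encodes the matrix adaptor matrilin 2, had one of the 2 lowest FDR values of the table, 6.6e-07, with a difference of 2.76 ± 0.19. Its contralateral day 7 values lay close together, 18.9, 18.7 and 19.5 CPM, and its injured values were 150, 177 and 200 CPM. At day 1 Matn2 was at 16.1, 16.7 and 18.6 CPM in contralateral and 24.3, 20.7 and 25.1 CPM in injured knees, again without overlap.

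**Figure D3:**
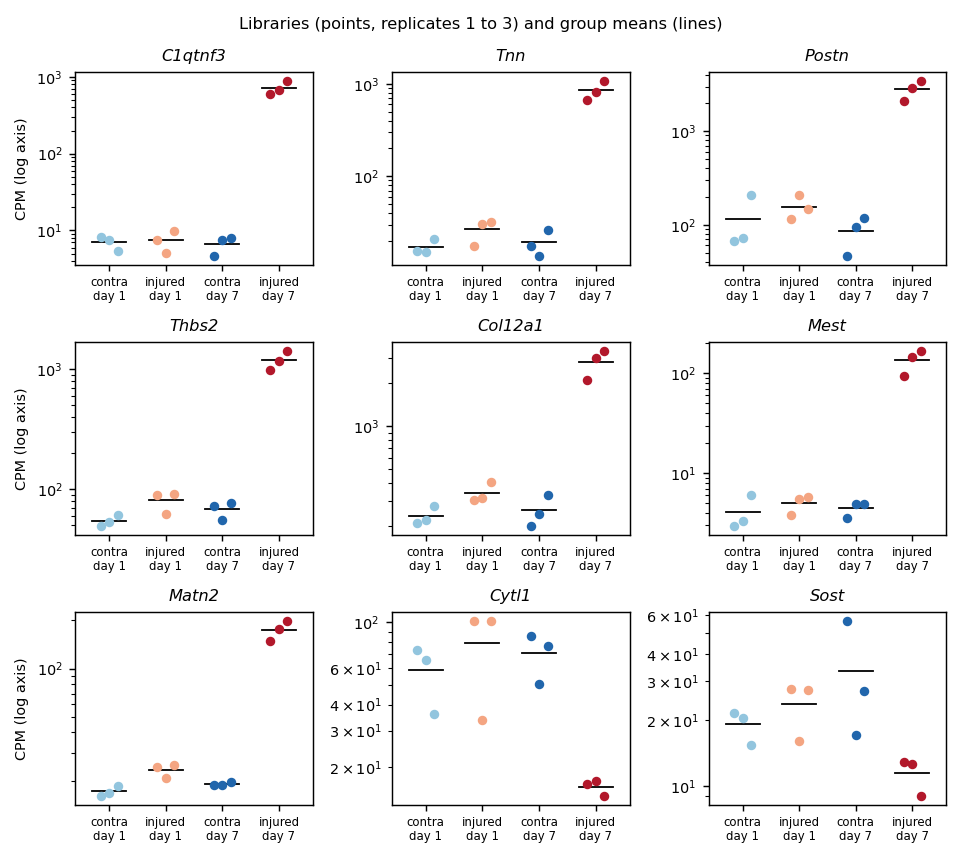
CPM of 9 genes in each of the 12 libraries on a log axis, by knee and day, with group means. The injured day 7 libraries are above all others for C1qtnf3, Tnn, Postn, Thbs2, Col12a1, Mest and Matn2, and below them for Cytl1 and Sost.

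Lrrc15, a leucine-rich repeat membrane protein of activated fibroblasts, rose from 1.38 to 5.41 CPM over the other 9 libraries to 110, 132 and 190 CPM (difference 5.39 ± 0.68, FDR 0.00015, and 6.26 without contralateral day 7 replicate 3). Moxd1, a monooxygenase-like gene, had a difference of 5.92 ± 0.87 (FDR 0.00068), of which the contralateral knees held a change between the days of -1.77 that was not called. Its difference was 4.90 without contralateral day 1 replicate 3. Fndc1 (3.87), which holds fibronectin type III domains, the growth factor gene Ptn (4.10), the nitric oxide pathway gene Ddah1 (3.99) and Crabp2 (3.95), a retinoic acid binding protein, were also among the 12 largest at 5 CPM or more. Crabp2 was at 3.10 without contralateral day 1 replicate 3. The prolyl hydroxylase subunit gene P4ha3 (4.09 ± 0.93, FDR 0.018) was not called without contralateral day 1 replicate 3 (2.83, FDR 0.114), injured day 1 replicate 1 (FDR 0.0575) or injured day 7 replicate 3 (FDR 0.0567), and was at 4.79 without injured day 1 replicate 2. By lowest p, Piezo2, a mechanically gated ion channel, came close to the top of the table (3.34 ± 0.25, FDR 1.0e-06), at 66.8, 90.4 and 104 CPM in injured day 7 knees against 6.98 to 9.79 CPM in the other 9 libraries and at most 11.9 CPM in naïve knees. Tmem254a (1.5 ± 0.12), Capn6 (3.13 ± 0.28), a calpain without protease activity, and the tubulin gene Tubb2b (2.16 ± 0.20) were also among the 10 lowest p-values.

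Of 17 fibrillar and fibril-associated collagen genes tested, 12 were higher and 0 lower (9 higher without the 2 day 1 libraries above), with a median difference of 1.92 beside -0.03 over all genes tested. Shares over all genes tested, to be set beside this and later list counts, were 3.53% higher and 0.245% lower. The group's median injury effect was 0.62 at day 1 and 2.36 at day 7. Col12a1, a collagen on fibril surfaces, was at 210, 219 and 277 CPM in contralateral and 305, 315 and 404 CPM in injured knees at day 1, and at 201, 242 and 332 CPM against 2112, 2994 and 3382 CPM at day 7 (2.92 ± 0.28, FDR 2.1e-05). The injured knees lay above the contralateral ones at both days for Col12a1, with a wide gap at day 7 only. Col3a1, the type III collagen gene, reached 21995, 21686 and 24297 CPM in injured day 7 knees against 918 to 3732 CPM in the other 9 libraries (2.80 ± 0.56, FDR 0.00742, and 3.51 without contralateral day 7 replicate 1). Col14a1 (2.76), Col6a1 (2.48) and Col6a2 (2.44), the latter pair chains of the pericellular type VI collagen, also rose.

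Col1a1 and Col1a2, which encode the chains of type I collagen, were not called. Col1a1 was at 7058, 8092 and 7873 CPM in contralateral and 12621, 10197 and 19986 CPM in injured knees at day 1, and at 52441, 15476 and 21550 CPM against 51090, 46982 and 54701 CPM at day 7. Contralateral day 7 replicate 1 reached the level of the injured libraries, so the groups overlapped. The difference of Col1a1 was -0.12 ± 0.55 (FDR 0.941), and 0.59 (FDR 0.524) without that library. For Col1a2 it was -0.16 ± 0.49 (FDR 0.907), and 0.43 (FDR 0.635) without the same library. The change of Col1a1 between the days was 1.84 in injured and 1.96 in contralateral knees, and the contralateral change was not called.

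Small leucine-rich proteoglycans bind collagen fibrils and set their width and spacing. Of 10 of their genes tested 6 were higher and 0 lower (5 higher without the 2 day 1 libraries), with a median difference of 2.05. Aspn, asporin, rose most (4.15 ± 0.52, FDR 0.00015), at 460, 660 and 889 CPM in injured day 7 knees against 13.6 to 42.7 CPM in the other 9. Ogn (2.77), Lum (2.52), Bgn (2.13) and Fmod (1.97), genes of osteoglycin, lumican, biglycan and fibromodulin, rose as well, while Dcn, decorin, had a difference of 1.02 ± 0.31 that did not pass (FDR 0.0743). In the collagen processing and crosslinking list 16 of 24 genes were higher and 0 lower (10 higher without the 2 day 1 libraries), with a median of 1.30. Among them were the lysyl oxidase-like gene Loxl2 (2.16), the prolyl hydroxylase subunit P4ha2 (1.99) and the lysyl hydroxylase Plod2 (1.82). The collagen-binding gene Sparc had effects of 0.62 at day 1 and 1.28 at day 7, and its difference, 0.67 ± 0.27, did not pass (FDR 0.211).

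Matricellular and myofibroblast genes were higher in 10 of 22 cases and lower in 0 (7 higher without the 2 day 1 libraries), with a median of 1.65. Cthrc1, a secreted protein of injured vessels and repair tissue, had a difference of 3.85 ± 0.62 (FDR 0.00133), and of 3.20 without contralateral day 1 replicate 3. Fn1, fibronectin, was at 6373, 8585 and 10662 CPM in injured day 7 knees, with a difference of 1.66 ± 0.39 (FDR 0.0204) that was not called without contralateral day 1 replicate 3 (FDR 0.0705), contralateral day 7 replicate 2 (0.0535), injured day 1 replicate 1 (0.0534) or injured day 7 replicate 3 (0.0753), nor without the 2 day 1 libraries (0.098) or with transcript lengths as an offset. Tnc, tenascin C, which carried an effect of 1.10 at day 7, had a difference of 0.80 ± 0.22 (FDR 0.0527). In the elastic fibre and microfibril list 7 of 15 genes were higher and 0 lower (5 higher without the 2 day 1 libraries), with a median of 1.49, led by Mfap4 (3.76), Fbn2, fibrillin 2 (3.19), and Mfap5 (2.87). Fbn1, the fibrillin 1 gene, was at 1.70 ± 0.50 (FDR 0.0674).

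**Figure D4:**
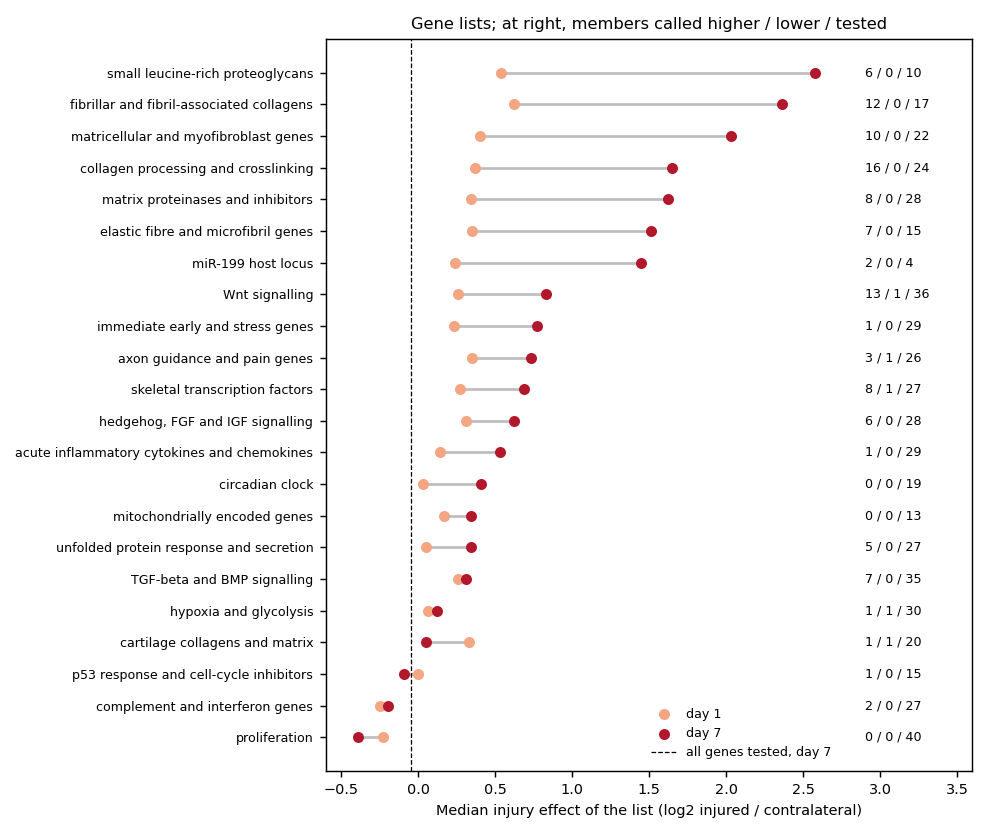
Median injury effect at day 1 and at day 7, as log2-fold change, of each function list, with the number of members higher, lower and tested for the difference at right. Cell type marker lists and the lists chosen after their values were seen are not plotted. Among the lists plotted, those of small leucine-rich proteoglycan, collagen and matricellular genes are farthest to the right at day 7. The proliferation list lies below 0 at both days.

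Of 20 cartilage collagen and matrix genes 1 was higher and 1 lower, 10% together beside 3.77% of all genes tested (0 higher and 1 lower without the 2 day 1 libraries), and their median difference was -0.65, or -0.01 without contralateral day 7 replicate 1. Acan, the aggrecan gene, was at 328, 247 and 307 CPM in contralateral and 394, 305 and 374 CPM in injured knees at day 1, and at 448, 278 and 354 CPM against 949, 1064 and 1252 CPM at day 7. All 3 injured libraries of day 7 were above the other 9, and the difference was 1.31 ± 0.36 (FDR 0.0463). That call held only in the fits without contralateral day 7 replicate 1 or injured day 7 replicate 1, and the FDR rose to as much as 0.143 in the other 10 and to 0.197 without the 2 day 1 libraries. Acan was also not called with DESeq2 size factors or with a stricter filter on low counts. Col2a1, the type II collagen gene, had a difference of -0.83 ± 0.54 (FDR 0.479), and contralateral day 7 replicate 1, at 10448 CPM, was far above the other 11 libraries, 2187 to 4116 CPM. Without it the value for Col2a1 was 0.09. Prg4, the lubricin gene of the cartilage surface and synovium, was at 1.22 ± 0.72 (FDR 0.429), and Col11a1 at 0.21 ± 0.34 (FDR 0.816). The value for Prg4 ran from 0.52 to 1.70 over the fits without 1 library, and it was called in none of them.

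Cytl1, a cytokine-like gene made by chondrocytes, was the lower member of the list and had the most negative difference among genes of at least 5 CPM. Its values were 73.7, 65.6 and 36.2 CPM in contralateral and 101, 33.8 and 102 CPM in injured knees at day 1, and 86.0, 50.2 and 76.6 CPM against 16.6, 17.04 and 14.5 CPM at day 7. The injured day 7 libraries were below every other library, the naïve ones included (38.1 to 111 CPM). The 2 lowest values outside that group were those of the day 1 libraries of high Prg4. The difference was -2.58 ± 0.58 (FDR 0.0158), and Cytl1 was not called without contralateral day 1 replicate 3 (FDR 0.0545), injured day 1 replicate 1 (0.0531) or injured day 7 replicate 3 (0.056).

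Among 28 matrix proteinases and their inhibitors 8 were higher and 0 lower, with a median of 1.17. Mmp2, gelatinase A, was at 1094, 1076 and 1421 CPM in injured day 7 knees against 82.8 to 179 CPM in the other 9 libraries (2.47 ± 0.26, FDR 4.1e-05). Mmp14, the membrane enzyme that activates the Mmp2 product, rose by 2.02 ± 0.25, and the metalloproteinase genes Mmp23 (1.85) and Adamts12 (1.69) and the serine protease gene Htra1 (1.76) rose too. The collagenase gene Mmp13, which cuts type II collagen, had a difference of -0.41 ± 0.36 (FDR 0.634), with levels of 387 to 513 CPM in both knees at day 7 and 163 to 324 CPM at day 1. Mmp9, a gelatinase of osteoclasts and neutrophils, was at -0.74 ± 0.23 (FDR 0.0885), and was called lower without contralateral day 7 replicate 1 (-0.81, FDR 0.0467) or injured day 1 replicate 2 (-0.88, FDR 0.0379).

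Of 36 Wnt pathway genes tested 13 were higher and 1 lower (9 and 0 without the 2 day 1 libraries), with a median of 0.63. Dkk3, of a family of secreted Wnt modulators, was at 213, 257 and 328 CPM in injured day 7 knees against 8.65 to 22.6 CPM in the other 9 (3.52 ± 0.40, FDR 6.0e-05), and the secreted frizzled-related genes Sfrp2 (3.19) and Sfrp1 (3.03, or 2.42 without contralateral day 1 replicate 3) followed. The ligand gene Wnt16, known for its tie to cortical bone and cartilage injury, rose by 2.88 ± 0.46 (FDR 0.00117), and the receptor gene Fzd2 by 2.69 ± 0.34. Sost, the osteocyte gene for the Wnt inhibitor sclerostin, was the lower member, with contralateral day 7 values of 56.7, 17.1 and 27.1 CPM against 12.9, 12.6 and 9.07 CPM in injured knees, and 15.4 to 27.8 CPM at day 1. Its difference was -1.85 ± 0.48 (FDR 0.0386), a call that held in only 4 of the 12 fits without 1 library (those without contralateral day 7 replicate 2 or 3, injured day 1 replicate 2 or injured day 7 replicate 1). Without contralateral day 7 replicate 1, the highest library, the difference of Sost was -1.23 (FDR 0.0775), and without the 2 day 1 libraries its FDR was 0.0763. Nor was Sost called by limma-voom, on the 12 libraries alone or with transcript lengths as an offset.

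In the transforming growth factor-β (TGF-β) and bone morphogenetic protein list 7 of 35 genes were higher and 0 lower (4 higher without the 2 day 1 libraries), with a median of 0.15, including the follistatin-like gene Fstl1 (2.41), the ligands Tgfb3 (1.63) and Tgfb2 (1.38) and the receptor gene Acvr1 (1.06). Tgfb2 was not called with transcript lengths as an offset. Tgfb1, another ligand gene, had a difference of -0.03 ± 0.16. Gdf5, a joint-forming ligand gene under 7 CPM in every library, had a difference of 2.60 ± 0.65 (FDR 0.0295), called in 5 of the 12 fits (those without contralateral day 1 replicate 1, contralateral day 7 replicate 1 or 3, injured day 1 replicate 3 or injured day 7 replicate 2), with an FDR up to 0.0885 in the others and of 0.13 without the 2 day 1 libraries. Of 28 hedgehog, fibroblast growth factor and insulin-like growth factor genes 6 were higher and 0 lower (4 higher without the 2 day 1 libraries). They included Igf1 (2.95 ± 0.30, FDR 2.8e-05), Igf2 (2.94 ± 0.46, FDR 0.001) and the binding protein gene Igfbp3 (2.27 ± 0.29). Igf1 stood at 491, 675 and 726 CPM in injured day 7 knees and at 39.98 to 102 CPM in the other 9.

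Among 27 skeletal transcription factors 8 were higher and 1 lower (5 and 0 without the 2 day 1 libraries), with a median of 0.69. Scx, scleraxis, which marks tendon and ligament precursors, was at 22.9, 21.1 and 23.5 CPM in injured day 7 knees against 1.84 to 3.52 CPM in the other 9 (2.52 ± 0.38, FDR 0.00089). Nfatc2 (1.61) and the limb mesenchyme gene Prrx1 (1.57) rose. Sox9, the master regulator of chondrocytes, had a difference of 1.44 ± 0.32 (FDR 0.0135) and was not called without injured day 7 replicate 3 (1.19, FDR 0.0534) or the 2 day 1 libraries (FDR 0.0795). The lower member was Sp7, osterix, of osteoblast precursors, one of the 5 genes with the larger effect at day 1. Its injury effect was 0.46 at day 1 and -0.45 at day 7, and neither was called. The difference for Sp7, -0.90 ± 0.24 (FDR 0.0422), was called in only 3 of the 12 fits (those without contralateral day 7 replicate 2, injured day 1 replicate 2 or injured day 7 replicate 1), and had an FDR of 0.0558 without the 2 day 1 libraries. Tnfrsf19, a receptor of mesenchymal precursors and another of the 5, went from an effect of 0.39 to -0.37 (difference -0.76 ± 0.18, FDR 0.0192). It was not called without contralateral day 1 replicate 2 (FDR 0.0531), injured day 1 replicate 3 (0.0547) or injured day 7 replicate 3 (0.0691). With transcript lengths as an offset neither Sp7 nor Tnfrsf19 was called, and Sp7 was not called by limma-voom, on the 12 libraries alone or with no filter on low counts either.

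In the immediate early and stress list 1 of 29 genes was higher (3.45%, near the 3.53% of all genes tested, so the count is not a result about the list) and 0 lower. The gene was Nr4a2, an orphan nuclear receptor, at 29.6, 28.1 and 70.2 CPM in injured day 7 knees against 4.22 to 11.2 CPM in the other 9 (2.37 ± 0.47, FDR 0.00742), a call lost with transcript lengths as an offset. The count was 4 without contralateral day 7 replicate 1, with Jun, Jund and Gadd45b besides Nr4a2. Atf3, a stress-induced transcription factor, carried an effect of 1.57 at day 7 and 0.45 at day 1 and did not pass (1.12 ± 0.34, FDR 0.0815). In the lists of acute inflammatory cytokines and chemokines, and of complement and interferon genes, 1 of 29 (Cx3cl1) and 2 of 27 (C1ra and C1s1) were higher and 0 lower. The cytokine count has the same share as the immediate early one and the same limit, and Cx3cl1 was not called without the 2 day 1 libraries. Without them 1 complement and interferon gene was lower and the same count of 2 was higher. C1ra, a subunit protease of the first complement component, had a difference of 1.26 ± 0.25 (FDR 0.008). The central complement gene C3 was at -0.41 ± 0.30 (FDR 0.546).

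Proliferation genes did not pass in any of 40 cases, with a median of -0.18. Mki67, the gene of the proliferation antigen Ki-67, was at 1206 to 1731 CPM at day 1 and 744 to 1627 CPM at day 7, with overlapping groups and a difference of 0.03 ± 0.30. None of 19 circadian clock genes and none of 13 mitochondrially encoded genes passed. With 3.77% of all genes tested called, 0 in lists of these sizes is not a result about the lists. In the hypoxia and glycolysis list 1 of 30 was higher and 1 lower, the latter the glucose transporter gene Slc2a3 (1 and 0 without the 2 day 1 libraries). The higher count is again near the share over all genes and is not a result about the list. The higher gene was Hif1a, the hypoxia-inducible factor gene (1.73 ± 0.38, FDR 0.0128), which was not called without injured day 7 replicate 3 (1.58, FDR 0.0524). In the list of the unfolded protein response and secretion 5 of 27 were higher and 0 lower (Kdelr2, Creb3l2 and Sec24d among them), or 2 higher without the 2 day 1 libraries, with Kdelr3 (1.85), a retrieval receptor of the endoplasmic reticulum, and Sec23a (0.86), a coat protein of vesicles that leave it. Of 26 axon guidance and pain genes 3 were higher (Robo1, Epha3 and Plxna1) and 1 lower (Slit2, the ligand of Robo1), or 2 and 0 without the 2 day 1 libraries. Over all genes tested 3.53% were higher and 0.245% lower. The receptor gene Robo1 rose most in the list (2.01 ± 0.28, FDR 0.00047).

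Mest, an imprinted gene expressed from the paternal copy in embryonic mesoderm, was at 2.97, 3.31 and 6.03 CPM in contralateral and 3.81, 5.56 and 5.72 CPM in injured knees at day 1, and at 3.59, 4.95 and 4.87 CPM against 94.4, 144 and 169 CPM at day 7 (4.63 ± 0.41, FDR 6.8e-06). Only the injured knees of day 7 were above the naïve range, 3.95 to 6.57 CPM. A list of imprinted genes was drawn up after this value had been seen. Of its 30 genes tested 14 were higher and 0 lower, with a median of 1.15. They included H19 (3.55 ± 0.51, FDR 0.00056), a long non-coding RNA beside Igf2, and from the Dlk1 domain of chromosome 12 Dlk1 (3.18), Rian (2.75) and Meg3 (2.09). Plagl1 (2.01), Peg3 (2.01), Zim1 (2.98) and Grb10 (1.97) also rose, and Cdkn1c, a cell-cycle inhibitor gene, did not pass (1.36 ± 0.42, FDR 0.0881), but was called without contralateral day 7 replicate 1 (1.77, FDR 0.013) or injured day 1 replicate 3 (1.64, FDR 0.0496) and by limma-voom.

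Several of the higher genes are hosts of microRNAs (miRNAs), short RNAs that pair with messages through a seed at bases 2 to 8. Mature miRNAs were not measured in these libraries, and the values are those of the host transcripts. Of 577 tested genes that hold a hairpin 31 were higher and 7 lower, 6.59% together, against 3.77% of all genes tested. Dnm3os, the non-coding host of miR-199a and miR-214, was at 9.99, 9.01 and 8.72 CPM in contralateral and 10.3, 12.4 and 14.9 CPM in injured knees at day 1, and at 7.01, 8.20 and 9.94 CPM against 24.2, 32.3 and 35.8 CPM at day 7. The injured day 7 libraries were above all others, with a difference of 1.43 ± 0.31 (FDR 0.0141) that was not called without injured day 1 replicate 1 (FDR 0.0501), injured day 7 replicate 3 (0.0611) or the 2 day 1 libraries (0.0595). Dnm1, whose opposite strand holds another member of the miR-199 family, rose by 1.57 ± 0.22 (FDR 0.00052). A selection of mature miRNAs held by Dnm3os, Mest, H19 and Igf2 is shown because these hosts carried a called difference, without the 3p arms of miR-335 and miR-483 (RefSeq, GRCm38.p6), with the seed in capitals.
mmu-miR-199a-5p: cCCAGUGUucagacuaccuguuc
mmu-miR-199a-3p: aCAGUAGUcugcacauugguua
mmu-miR-214-5p: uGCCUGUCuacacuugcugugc
mmu-miR-214-3p: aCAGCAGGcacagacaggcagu
mmu-miR-335-5p: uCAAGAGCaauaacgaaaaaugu
mmu-miR-675-5p: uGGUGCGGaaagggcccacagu
mmu-miR-675-3p: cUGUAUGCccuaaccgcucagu
mmu-miR-483-5p: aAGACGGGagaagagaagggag
All of these seeds differ from one another. The Dnm3os hairpins lie within chr1:162217623-162225550, the span of the host on the plus strand.

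Of the 52 lower genes 5 kept their call in all 12 fits without 1 library (Cdh15, Nlrp12, Rab11fip1, Gm35715 and Gm45038). Cdh15, a cadherin of muscle precursors, went from an effect of 0.53 to -0.74 (difference -1.26 ± 0.27, FDR 0.0128). Nlrp12, a receptor of myeloid cells, was at 16.6, 17.2 and 16.8 CPM in contralateral and 20.1, 15.8 and 20.1 CPM in injured knees at day 1, and at 25.6, 23.0 and 20.7 CPM against 15.4, 12.6 and 13.4 CPM at day 7 (-0.88 ± 0.18, FDR 0.00819). The injured day 7 libraries were the 3 lowest of the 12, and the contralateral day 7 libraries the 3 highest. Nlrp12 was not called with transcript lengths as an offset. Jaml, a leukocyte adhesion gene, had a difference of -1.07 ± 0.25 (FDR 0.0216) and was not called without contralateral day 1 replicate 2 (FDR 0.0539), injured day 1 replicate 1 (0.0579), injured day 7 replicate 2 (0.065), injured day 7 replicate 3 (0.0758) or the 2 day 1 libraries (0.0769).

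Marker lists of the cells that cartilage caps could hold were read in the same way. All 12 chondrocyte markers were detected, 2 of them (Acan and Sox9) were higher and 0 lower (0 higher without the 2 day 1 libraries), and the median was -0.44, or 0.06 without contralateral day 7 replicate 1. Tendon and ligament markers were higher in 5 of 11 cases, with Tnmd, tenomodulin, at 89.1, 82.6 and 93.4 CPM in injured day 7 knees against 2.41 to 11.3 CPM in the other 9 libraries and at most 13.2 CPM in naïve knees (2.70 ± 0.63, FDR 0.0205, not called without contralateral day 1 replicate 2, FDR 0.0507, or injured day 7 replicate 3, FDR 0.0545). Synovial fibroblast markers were higher in 5 of 16 cases (3 without the 2 day 1 libraries), including Thy1 at 1.75 ± 0.26 (FDR 0.00084), and summed to 2317 to 3681 CPM in injured day 7 knees against 1144 to 1544 CPM in contralateral day 7 knees. The 2 day 1 libraries named above reached 2444 and 2565 CPM, within the injured day 7 range. Prg4 brought them there, at 1649 and 1775 CPM against 730 to 1771 CPM in injured day 7 knees. The rest of the list summed lower in each day 1 library than in each injured day 7 library. Pericyte and smooth muscle markers, 1 of 10 higher (0 without the 2 day 1 libraries) with a median of 0.80, summed to 975 to 1203 CPM in injured and 564 to 611 CPM in contralateral day 7 knees. Their day 1 sums were 552 to 1083 CPM. Endothelial markers, 1 of 14 higher (0 without the 2 day 1 libraries) with a median of 0.25, summed to 925 to 1052 CPM against 761 to 797 CPM, and 5 of them were higher at day 7. At day 1 the endothelial sums were 663 to 836 CPM. With 3.53% of all genes tested higher, 1 call in the pericyte list and 1 in the endothelial list are not a result about them. The collagen, proteoglycan and matricellular lists moved with the tendon and synovial marker lists, and share genes with the tendon, synovial and pericyte ones. Pericyte and endothelial sums were also higher in injured than in contralateral day 7 knees. The part of these cells in the result was not tested.

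None of 13 erythroid, 16 neutrophil and marrow myeloid, 14 macrophage or 18 skeletal muscle markers passed, with medians of -0.35, -0.49, 0.27 and -0.63 in that order. With 3.77% of all genes called, 0 in lists this small is not a result about them. At day 7 alone 8 of the erythroid and 5 of the neutrophil markers were lower in injured knees. Erythroid markers summed to 17667 to 28805 CPM in injured and 30829 to 66842 CPM in contralateral day 7 knees, so these groups did not overlap. The highest of these sums was that of contralateral day 7 replicate 1, and its replicates were at 30829 and 33138 CPM. At day 1 the sums were 20624.5 to 35758.0 CPM in injured and 31621.9 to 41836.5 CPM in contralateral knees, with overlap. The median injury effect of the erythroid list was -0.35 at day 1 and -0.66 at day 7. Adipocyte markers summed to 406 to 523 CPM in injured and 988 to 1167 CPM in contralateral day 7 knees, and their median difference was the most negative of all lists, -1.46, with 0 of 11 passing, or 5 lower without the 2 day 1 libraries of low adipocyte sums. Osteoblast and osteocyte markers were lower in 2 of 16 cases (Sp7 and Sost) and higher in 0 (0 lower without the 2 day 1 libraries), or 4 others lower without contralateral day 7 replicate 1, with a median of -0.88. The part of these cells in the lower genes was not tested.

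**Figure D5:**
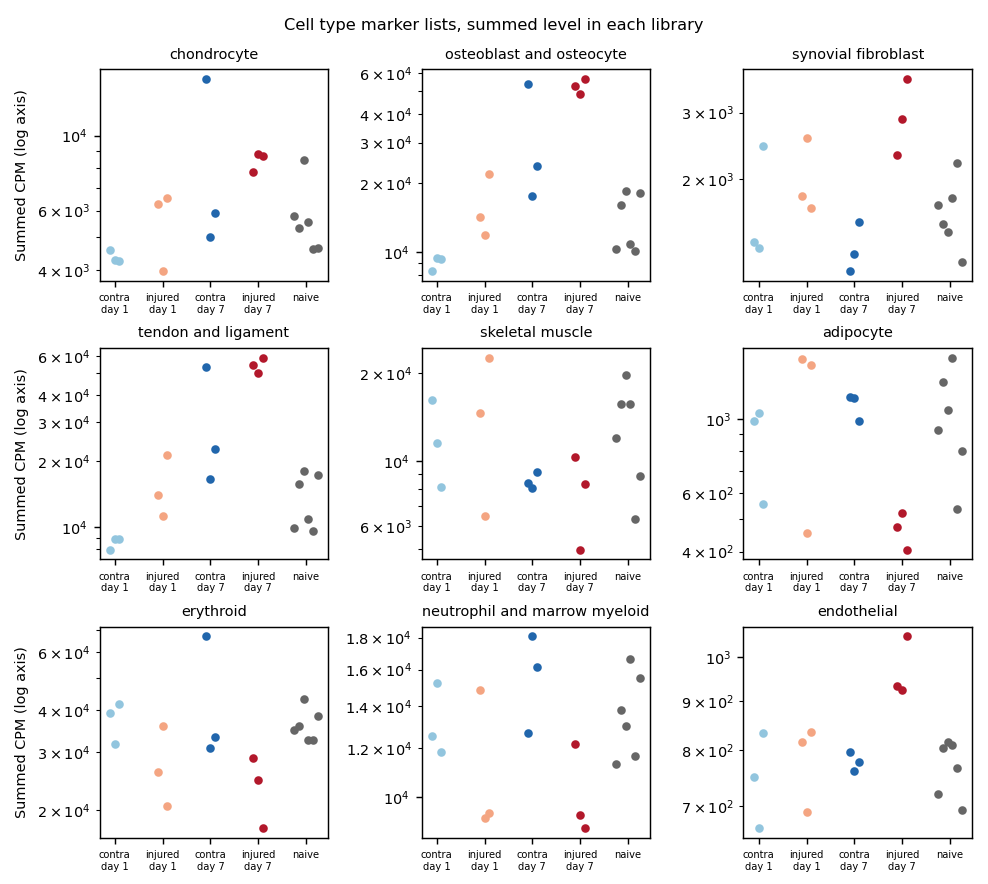
Summed CPM of 9 cell type marker lists in each of the 18 libraries on a log axis, by group, with 1 point for each library. Synovial fibroblast sums are higher and adipocyte and erythroid sums lower in injured than in contralateral day 7 knees. Some day 1 libraries lie within the injured day 7 range for each of these lists, for the synovial list because of Prg4. Contralateral day 7 replicate 1 stands above its replicates for the chondrocyte, osteoblast, tendon and erythroid lists. For the osteoblast and tendon lists this is due to Col1a1, which is in both. The rest of each of these lists summed lower in it than in its replicates.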

How the data were processed

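Libraries were made with a stranded total RNA kit after ribosomal RNA depletion. Per the paper's methods the authors trimmed reads with Trimmomatic and used Kallisto against the mouse GRCm38 transcriptome, while the labels list GRCh38, kallisto and DESeq2. The deposited files hold estimated counts, TPM and transcript lengths for 137436 transcripts in each library, as the authors' quantification wrote them; TPM was not used, and lengths served the length offset only. Estimated counts were summed per gene through the GENCODE M21 annotation of GRCm38, which matched 135107 transcripts (98.3%) once version numbers were dropped; unmatched transcripts held 0.667% to 3.898% of counts.

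Sums were rounded and fitted with edgeR 4.0.16 (R 4.3.3, TMM normalisation, filterByExpr, quasi-likelihood) on all 18 libraries with 5 group means, after a test on simulated data. A call needed an FDR of at most 0.05 (Benjamini-Hochberg) and 1.5-fold. Alternatives were DESeq2 1.42.0, limma-voom (limma 3.58.1), other filters and scaling, the length offset, and leaving out libraries. Named genes were drawn, and not all of those eligible are described, from the 12 largest differences in each direction at 5 CPM or more, the 10 lowest p-values, up to 5 called and 3 abundant members of each of 36 lists, genes with the larger effect at day 1, and genes the study names for ACL rupture. Genes of 4 further lists (imprinted, C1q/TNF-related, vesicle coat and sulphated chain synthesis genes) were chosen after their values were seen. The members and lists were chosen with earlier results of these data known. The study's own model accounted for libraries of a shared mouse pool; the fit here treats libraries as independent, since the labels do not give the pools. Labels do not say which ACL library the study removed for low mapping.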

Additional observations from a re-analysis of the deposited data

Results flagged for a closer look

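The difference between the injury effects of the days is itself the comparison described, so each gene called for it was picked out because its effects differed between the days. There were 750 such genes with the higher effect at day 7 and 52 with the lower. The log2 difference is listed for the called genes described above. Among matrix and matricellular genes it was 4.84 for Tnn, 4.60 for Postn, 4.15 for Aspn, 3.87 for Fndc1, 3.85 for Cthrc1, 3.76 for Mfap4, 3.57 for Thbs2, 3.19 for Fbn2, 2.92 for Col12a1, 2.87 for Mfap5, 2.80 for Col3a1, 2.77 for Ogn, 2.76 for Matn2, 2.76 for Col14a1, 2.52 for Lum, 2.48 for Col6a1, 2.44 for Col6a2, 2.13 for Bgn, 1.97 for Fmod, 1.66 for Fn1 and 1.31 for Acan. For matrix enzymes and modifiers it was 4.09 for P4ha3, 2.56 for Sulf2, 2.47 for Mmp2, 2.26 for Sulf1, 2.16 for Loxl2, 2.02 for Mmp14, 2.0 for Chsy3, 1.99 for P4ha2, 1.93 for Dsel, 1.85 for Mmp23, 1.82 for Plod2, 1.76 for Htra1 and 1.69 for Adamts12. In signalling genes it was 4.10 for Ptn, 3.52 for Dkk3, 3.19 for Sfrp2, 3.03 for Sfrp1, 2.95 for Igf1, 2.94 for Igf2, 2.88 for Wnt16, 2.69 for Fzd2, 2.60 for Gdf5, 2.41 for Fstl1, 2.27 for Igfbp3, 2.01 for Robo1, 1.63 for Tgfb3, 1.38 for Tgfb2, 1.06 for Acvr1, -0.76 for Tnfrsf19 and -1.85 for Sost. Values for transcription and stress genes were 2.52 for Scx, 2.37 for Nr4a2, 1.73 for Hif1a, 1.61 for Nfatc2, 1.57 for Prrx1, 1.44 for Sox9, 1.26 for C1ra and -0.90 for Sp7. Those of C1q/TNF-related genes were 6.62 for C1qtnf3, 2.59 for C1qtnf2, 2.01 for C1qtnf5, 1.88 for C1qtnf1 and 1.81 for C1qtnf6. The imprinted and host genes had 4.63 for Mest, 3.55 for H19, 3.18 for Dlk1, 2.98 for Zim1, 2.75 for Rian, 2.09 for Meg3, 2.01 for Peg3, 2.01 for Plagl1, 1.97 for Grb10, 1.57 for Dnm1, 1.45 for Copz2 and 1.43 for Dnm3os. Among other genes it was 5.92 for Moxd1, 5.39 for Lrrc15, 3.99 for Ddah1, 3.95 for Crabp2, 3.34 for Piezo2, 3.13 for Capn6, 2.70 for Tnmd, 2.16 for Tubb2b, 1.85 for Kdelr3, 1.75 for Thy1, 1.5 for Tmem254a, 0.86 for Sec23a, -0.88 for Nlrp12, -1.07 for Jaml, -1.26 for Cdh15 and -2.58 for Cytl1.

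Of 25 sums and values checked over the 6 naïve libraries 1 had a library far from the others, the sum of chondrocyte markers, of which the highest was 8495 CPM. Chance gives about 1 in 20 such cases. Naïve libraries are in no group of the difference, but enter its fit through the scaling, the filter and the estimate of the spread.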

How the results depend on the processing

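No paired analysis was possible because the labels do not tie injured and contralateral libraries to the same mice, although the study modelled shared mouse pools. The count of 750 higher differences became 341 at an FDR limit of 0.01. It became 376 after removal of the 2 day 1 libraries whose synovial marker sums were high through Prg4. That setting was chosen after seeing the data, and 374 of the 750 were kept in it. Leaving out 1 library gave 393 (without injured day 7 replicate 3) to 892 (without contralateral day 7 replicate 1), and 447 without contralateral day 1 replicate 3 and 483 without injured day 1 replicate 1. The 52 lower differences became 25 with no filter on low counts, 160 by DESeq2, 21 on the 12 libraries alone, 27 with transcript lengths as an offset, 3 at the FDR limit of 0.01 and 22 when the 2 day 1 libraries were removed (10 kept). Leaving out 1 library gave 9 (without injured day 7 replicate 3) to 91 (without injured day 1 replicate 2). With the length offset 486 of the 750 and 17 of the 52 kept their call. The cause of these changes was not tested.

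Genes higher in injured knees at day 7 numbered 1508 to 2030 without 1 library. Lower genes at day 7 numbered 452 by limma-voom, 251 at an FDR of at most 0.01, 1310 with no fold limit and 279 to 1058 without 1 library. At day 1, lower genes numbered 2 on the 12 libraries alone and 0 in every fit without 1 library. In injured knees between the days higher genes numbered 2627 with no fold limit and 1316 to 1959 without 1 library, and lower genes 304 at an FDR of at most 0.01 and 597 to 1419 without 1 library. In contralateral knees between the days higher genes numbered 1 with no filter, 70 by DESeq2, 0 to 2 without 1 library, and 0 by limma-voom, on the 12 libraries alone, with the length offset, at the stricter FDR and with the 2 day 1 libraries removed. Lower genes there numbered 10 by DESeq2, 0 to 1 without 1 library and 0 in each of the other settings just named. No called gene and no count with calls changed its direction in these settings, while Col1a1, Col1a2 and Col2a1, which were not called, went from -0.12 to 0.59, from -0.16 to 0.43 and from -0.83 to 0.09 without contralateral day 7 replicate 1, and Mki67, Tgfb1 and Col11a1, also not called, changed sign in at least 1 fit without 1 library. Of the 92 called genes described above 73 kept their call in every setting run, and 16 lost it at an FDR of at most 0.01. The 3 pools per group and the unknown pairing limit what smaller differences can be detected.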

Other observations

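Genes of 3 further lists were looked at after their values had been seen, so their counts are a description. Of 9 genes related to C1qtnf3, secreted proteins with a C1q domain like that of complement and tumour necrosis factor, 5 were higher for the difference between injury effects and 0 lower, with a median of 1.81. Besides C1qtnf3 these were C1qtnf2 (2.59), C1qtnf5 (2.01), C1qtnf1 (1.88) and C1qtnf6 (1.81). C1qtnf2 was not called on the 12 libraries alone or with transcript lengths as an offset. C1qtnf6 was at 14.4, 16.7 and 19.7 CPM in contralateral and 21.4, 25.0 and 28.5 CPM in injured knees at day 1, and at 33.8, 23.8 and 27.8 CPM against 143, 133 and 163 CPM at day 7. Injured knees of day 7 were above all the other libraries.

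COPI and COPII coats carry new proteins between the endoplasmic reticulum and the Golgi. Of 38 of their genes 19 were higher and 0 lower (10 higher without the 2 day 1 libraries of high Prg4), with a median of 0.59. Copz2, a COPI subunit and the host of miR-152, rose by 1.45 ± 0.27 (FDR 0.00379 in edgeR's test). Of 31 genes that build or trim chondroitin and heparan sulphate chains 11 were higher and 0 lower (7 higher without these 2 libraries), with a median of 0.62. Sulf2 (2.56) and Sulf1 (2.26), sulphatases that trim heparan sulphate, Chsy3 (2.0), a chondroitin synthase, and Dsel (1.93), an epimerase-like gene of dermatan sulphate, were among them.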
